A study of Rattus norvegicus with 18 samples.

Results

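Inosine is a purine nucleoside, and the genes described here encode proteins that respond to adenosine and inosine or that make and break them down: the adenosine receptors Adora1, Adora2a and Adora2b, the ecto-nucleotidase Nt5e, adenosine deaminase (Ada), the salvage enzyme Hprt1 and xanthine dehydrogenase (Xdh). They were chosen by name, as 7 Ensembl rat gene entries out of 32754 in the count table, and not by how they behaved. Earlier results of these data were known when they were chosen. The table gives no gene symbols, so each symbol rests on the identifier that was chosen for it. The 6 groups of 3 libraries each were all from wild-type male Sprague Dawley rat bladder that had been dissected into detrusor, the smooth muscle layer, and mucosa, the urothelium with its lamina propria. Control rats had no spinal cord injury (SCI) and no treatment. SCI-vehicle and SCI-inosine rats had a complete cord transection at thoracic level T8 when 6 to 7 weeks old, and then daily intraperitoneal injections for 8 weeks, of sodium bicarbonate buffer or of inosine at 225 mg/kg per day. Both SCI groups therefore differ from Control by surgery and injection as well as by injury, and no group received inosine without injury. The tissues hold many cell types, and fewer cells of a type and less RNA per cell cannot be told apart in them.

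As background, extracellular ATP is degraded to AMP, from which Nt5e makes adenosine. Adenosine acts on cell-surface receptors: Adora1 couples to inhibitory G proteins and lowers cyclic AMP, whereas Adora2a and Adora2b couple to stimulatory G proteins and raise it. Ada converts adenosine to inosine, which can then be split to hypoxanthine. Hprt1 returns hypoxanthine to the nucleotide pool, and Xdh oxidises it to xanthine and uric acid. In the bladder, adenosine receptors are present in both muscle and urothelium.

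The 250 bases before the annotated start of transcription are shown for Adora2b, Nt5e and Ada, since these 3 genes were called between the tissues of Control rats. The sequences are from RefSeq on build GRCr8, which is not the build of the counts, and capitals mark each GC box, GGGCGG on either strand, the letters bound by Sp1-family factors.
Adora2b, chr10:47439462-47439711, plus strand: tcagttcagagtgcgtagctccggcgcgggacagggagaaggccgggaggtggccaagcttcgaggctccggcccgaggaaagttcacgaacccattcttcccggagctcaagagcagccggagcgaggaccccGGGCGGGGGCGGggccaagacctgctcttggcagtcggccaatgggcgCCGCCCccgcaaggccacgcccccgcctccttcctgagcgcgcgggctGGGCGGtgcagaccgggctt
Nt5e, chr8:98150675-98150924, plus strand: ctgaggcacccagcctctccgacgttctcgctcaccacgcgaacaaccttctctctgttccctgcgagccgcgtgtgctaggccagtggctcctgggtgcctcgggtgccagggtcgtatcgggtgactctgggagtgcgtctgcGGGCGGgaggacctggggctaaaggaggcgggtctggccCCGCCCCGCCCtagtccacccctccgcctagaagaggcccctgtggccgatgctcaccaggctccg
Ada, chr3:172842284-172842533, minus strand: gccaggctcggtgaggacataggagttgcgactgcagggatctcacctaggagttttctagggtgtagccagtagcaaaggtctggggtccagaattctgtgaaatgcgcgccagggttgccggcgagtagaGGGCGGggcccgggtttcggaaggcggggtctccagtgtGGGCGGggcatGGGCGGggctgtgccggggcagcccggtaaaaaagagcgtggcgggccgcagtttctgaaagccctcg

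These windows held 4 GC boxes for Adora2b, 3 for Nt5e and 3 for Ada, overlapping matches included, and their GC contents were 71.2%, 68.8% and 64.0%. Over all 33469 promoter windows of this length, 30.5% held a GC box and the median GC content was 51.2%. The Hprt1 window held 5 GC boxes, those of Adora1 and Xdh held 0, and Adora2a was not in the table used. None of the 6 windows held a TATA box (TATAAA, in 12.9% of all windows), a cyclic AMP response element (TGACGTCA, in 1.59%) or a CArG box (in 1.497%). These matches describe letters only.

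Reads were counted per gene, and total counts ranged from 4101639 to 6810496 per detrusor library and from 3255012 to 5632324 per mucosa library. Levels are given as CPM, counts relative to the library total, scaled by the trimmed mean of M-values (TMM) of edgeR, so a level can be compared between libraries for one gene but not between genes, whose lengths were not used. Differences were tested with the quasi-likelihood F test of edgeR, two-sided, and called at an adjusted p-value under 0.05. Of the 7 genes, 6 passed the filter on low counts. A pair of libraries stood apart. Replicate 2 of detrusor SCI-inosine had counts in 14126 genes, where the other detrusor libraries had 16475 to 17842. Replicate 1 of detrusor SCI-vehicle stood 25.9% of the way from the control detrusor toward the control mucosa in genes enriched in mucosa, against at most 10.2% in the other detrusor libraries. Calls that change when either library is left out are given with and without it.

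Within a tissue, none of the 6 genes tested passed the threshold for injury or for inosine. The count of genes called was 0 of 6 in all 6 comparisons, both by edgeR's quasi-likelihood test and by DESeq2. Over all 15740 genes tested, 0.0762% were called in detrusor for SCI-vehicle versus Control and 0.292% for SCI-inosine versus Control. The share was 0% for SCI-inosine versus SCI-vehicle in detrusor and for both comparisons with Control in mucosa, and 0.00635% for SCI-inosine versus SCI-vehicle in mucosa. At an unadjusted p-value under 0.05, 1 of the 6 was past the threshold in detrusor SCI-inosine versus Control, namely Xdh, where 13.6% of all genes were, and 0 of 6 were in the other 5 comparisons. Of all genes, 13% were past it for SCI-vehicle versus Control and 4.38% for SCI-inosine versus SCI-vehicle in detrusor. In mucosa the shares were 10.2% for SCI-vehicle versus Control, 5% for SCI-inosine versus Control and 5.53% for SCI-inosine versus SCI-vehicle. Libraries of the groups did not overlap for 1 of the 6 genes in detrusor SCI-vehicle versus Control (Xdh, 20.5% of all genes), for 1 in mucosa SCI-inosine versus Control (Adora2b, 9.9% of all genes), and for 0 in the others, where the shares over all genes were 18.6% for detrusor SCI-inosine versus Control, 9.29% for detrusor SCI-inosine versus SCI-vehicle, 15.9% for mucosa SCI-vehicle versus Control and 9.16% for mucosa SCI-inosine versus SCI-vehicle.

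Between the tissues the genes differed more often, and those that passed the test were lower in mucosa, except that on total counts in place of TMM 2 of them were higher there in Control. Of the 6 genes, 3 were called in Control, 5 after injury with vehicle and 3 after injury with inosine, against 44.5%, 47.1% and 42.7% of all genes tested. Counting only genes lower in mucosa, the shares over all genes were 21.2%, 21.7% and 19.9%. Adora1, called with all libraries only after injury with vehicle, passed the filter on low counts through its detrusor libraries. Without it, 3, 4 and 3 of 5 genes were called. The median log2 fold change of mucosa over detrusor over the 6 genes was −1.30 in Control, −1.05 with vehicle and −0.92 with inosine, and without Adora1, whose counts were few, −1.19, −0.997 and −0.70. The medians over all genes tested were 0.07, 0.16 and 0.11. The SCI-vehicle count was 3 without replicate 1 of mucosa SCI-vehicle, where 6503 of the 15740 genes tested were called. Without TMM, on total counts alone, the 3 counts were 5, 3 and 2 of 6, or 5, 2 and 2 of the 5 genes other than Adora1. Of the 15740 genes tested, 8970, 9355 and 8208 were called on total counts. The median of all genes in these comparisons moved up by 0.55, 0.52 and 0.41. Every log2 fold change between the tissues is therefore relative to the centring that TMM sets.

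**Figure D1:**
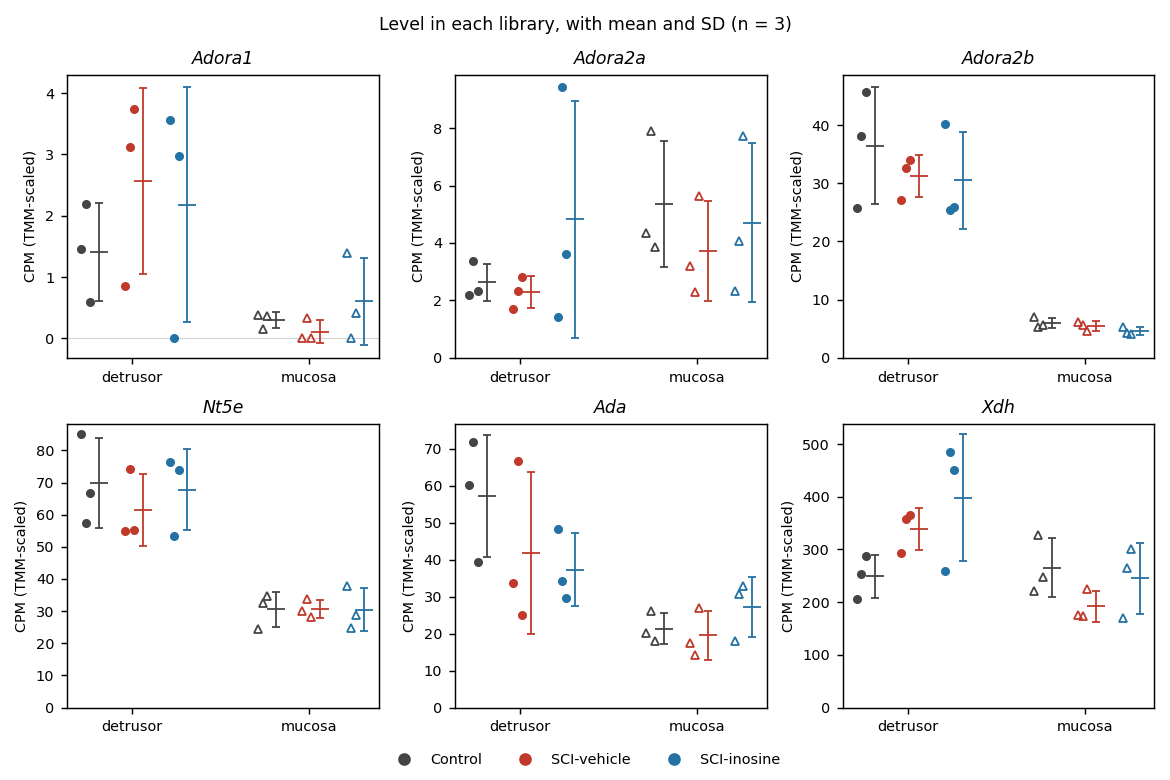
TMM-scaled CPM of the 6 genes with counts in each of the 18 libraries, detrusor as filled circles and mucosa as open triangles, coloured by condition, with the mean and SD of each group of 3 beside them. Adora2b and Nt5e lie higher in every detrusor library than in any mucosa library, while the conditions overlap for most genes.

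Adora2b, the low-affinity stimulatory adenosine receptor (ENSRNOG00000002922), had the largest called tissue difference among the genes with more than a few counts per library. In detrusor its levels were 25.7, 38.1 and 45.6 CPM in the Control libraries, 27.2, 32.6 and 34.0 CPM with SCI-vehicle, and 40.1, 25.4 and 25.9 CPM in SCI-inosine. In mucosa they were 6.97, 5.36 and 5.68 CPM in the Control libraries, 6.19, 5.58 and 4.57 CPM with SCI-vehicle, and 5.31, 4.33 and 4.18 CPM in SCI-inosine. The lowest detrusor library was thus above the highest mucosa library. Adora2b was 6.07-fold higher in detrusor than in mucosa of Control rats (log2 fold change of mucosa over detrusor −2.60 ± 0.24 SE, adjusted p = 6.83e-07, edgeR), 5.70-fold higher in SCI-vehicle (−2.51 ± 0.24, adjusted p = 1.64e-06) and 6.59-fold higher in SCI-inosine (−2.72 ± 0.25, adjusted p = 3.71e-06). These 3 calls held under every one of the 25 alternatives tried for each. In the order of the group means, detrusor Control came first with 36.5 ± 10.1 CPM (SD, n = 3), then detrusor SCI-vehicle (31.2 ± 3.62) and detrusor SCI-inosine (30.5 ± 8.35), with overlapping libraries. Mucosa Control (6.00 ± 0.853), mucosa SCI-vehicle (5.45 ± 0.823) and mucosa SCI-inosine (4.61 ± 0.614) followed, each overlapping with its neighbour.

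The Adora2b libraries of mucosa SCI-inosine all lay below those of mucosa Control. The difference was not called (log2 fold change −0.39 ± 0.23 SE, 95% interval −0.90 to 0.12, edgeR adjusted p = 0.998). In detrusor, SCI-vehicle differed from Control by −0.20 on the log2 scale (interval −0.73 to 0.32, adjusted p = 0.764) and SCI-inosine by −0.25 (interval −0.78 to 0.27, adjusted p = 0.649).

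Adora2a, the high-affinity stimulatory receptor (ENSRNOG00000001302), was counted at 8 to 56 reads per detrusor library and 10 to 53 per mucosa library, and no comparison was called. Its detrusor levels were 2.18, 3.38 and 2.34 CPM in the Control libraries, 1.71, 2.34 and 2.80 CPM with SCI-vehicle, and 1.43, 9.43 and 3.61 CPM in SCI-inosine. Its mucosa levels were 4.33, 7.88 and 3.85 CPM in the Control libraries, 3.20, 2.30 and 5.65 CPM with SCI-vehicle, and 2.31, 4.08 and 7.74 CPM in SCI-inosine. One library, replicate 2 of detrusor SCI-inosine, was the highest of all 18 and lay far from the others of its group, whereas the conditions overlapped within each tissue and all 3 mucosa Control libraries lay above the detrusor Control libraries. Detrusor SCI-inosine exceeded Control by 0.87 on the log2 scale (SE 0.63, interval −0.51 to 2.25, edgeR adjusted p = 0.553), and without that library the difference was −0.09 (adjusted p = 0.975). Detrusor SCI-inosine exceeded SCI-vehicle by 1.06 (interval −0.31 to 2.44, edgeR adjusted p = 0.952), and by 0.11 without that library. Mucosa exceeded detrusor in Control by 1.01 (SE 0.59, interval −0.24 to 2.27, adjusted p = 0.183). On total counts that difference was 1.56 (adjusted p = 0.0376). The order of the means ran from mucosa Control (5.35 ± 2.20 CPM), detrusor SCI-inosine (4.82 ± 4.13), mucosa SCI-inosine (4.71 ± 2.77) and mucosa SCI-vehicle (3.72 ± 1.74) to detrusor Control (2.63 ± 0.648) and detrusor SCI-vehicle (2.28 ± 0.549), and each neighbouring pair overlapped.

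The balance of the 2 stimulatory receptors in a library does not depend on how libraries are scaled. Adora2b counts were 2.70 to 28.1 times the Adora2a counts in the 9 detrusor libraries (median 12.1) and 0.541 to 2.43 times in the 9 mucosa libraries (median 1.48), with no overlap between the tissues. The detrusor SCI-inosine libraries spanned the whole detrusor range, from 2.70 in replicate 2 to 28.1 in replicate 1, and the other detrusor libraries lay between 11.3 and 19.5. The ratio includes the different lengths of the transcripts, so it is compared between libraries only and was not tested.

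**Figure D2:**
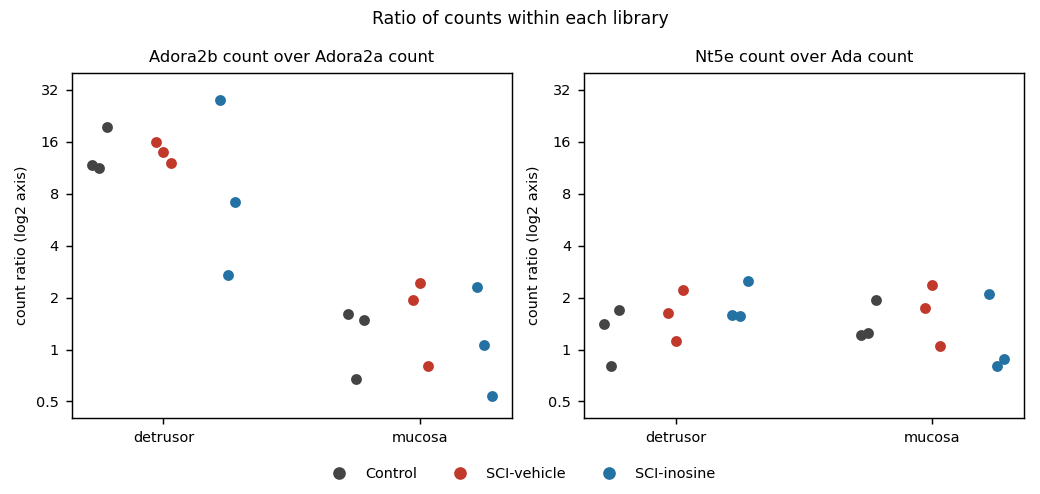
Ratio of raw counts within each library on a log2 axis, Adora2b over Adora2a on the left and Nt5e over Ada on the right, with 3 libraries per group coloured by condition. The Adora2b to Adora2a ratio is 2.70 or more in detrusor and 2.43 or less in mucosa, and the Nt5e to Ada ratio overlaps between the tissues.

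Adora1, the inhibitory receptor (ENSRNOG00000003442), was near the detection limit. In detrusor its counts were 6, 11 and 2 in Control, 4, 16 and 20 in SCI-vehicle, and 20, 0 and 14 in SCI-inosine, 93 in all. In mucosa they were 2, 1 and 2 in Control, 0, 2 and 0 in SCI-vehicle, and 6, 0 and 2 in SCI-inosine, 15 in all with 3 libraries at 0. Mucosa therefore had few reads in every group, and the detrusor library at 0 was again replicate 2 of SCI-inosine. The ratio of detrusor to mucosa, from pooled counts over scaled library sizes, was 20.7 with vehicle, 5.28 for uninjured rats and 3.41 with inosine. Pooling hides the spread between libraries, so these ratios are a description only. In the edgeR test over single libraries, the log2 fold change of mucosa over detrusor was −4.13 with vehicle (95% interval −6.83 to −1.42, adjusted p = 0.0143). No difference was called for uninjured rats (−2.23, interval −4.72 to 0.25, adjusted p = 0.137) or with inosine (−1.78, interval −4.02 to 0.46, adjusted p = 0.186). In SCI-vehicle, 40 detrusor counts stood against 2 in mucosa. Without replicate 2 of detrusor SCI-inosine, Adora1 was also called between tissues in Control (edgeR adjusted p = 0.0418) and in SCI-inosine (edgeR adjusted p = 0.0256). Adora1 exceeded 1 CPM in 6 detrusor libraries and 1 mucosa library, so it passed the filter through the tissue where it was higher, and the tissue test of edgeR on it is not used as support. Group means ran from detrusor SCI-vehicle (2.57 ± 1.52 CPM), SCI-inosine (2.18 ± 1.91) and Control (1.41 ± 0.8005) to mucosa SCI-inosine (0.602 ± 0.711), Control (0.297 ± 0.129) and SCI-vehicle (0.109 ± 0.190), and each neighbouring pair overlapped. A change of Adora1 with injury or inosine in mucosa was not detectable at this depth.

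Nt5e, which makes extracellular adenosine (ENSRNOG00000011071), was about 2 to 2.3 times higher in detrusor with TMM scaling. Its detrusor levels were 85.1, 57.6 and 66.7 CPM in the Control libraries, 54.9, 74.3 and 55.2 CPM with SCI-vehicle, and 76.4, 53.4 and 73.8 CPM in SCI-inosine. Its mucosa levels were 24.5, 32.6 and 34.6 CPM in the Control libraries, 30.2, 33.8 and 28.3 CPM with SCI-vehicle, and 37.9, 24.7 and 28.9 CPM in SCI-inosine. All detrusor libraries lay above all mucosa libraries, and the 3 conditions overlapped within each tissue. The detrusor level was 2.28-fold the mucosa level in Control (log2 fold change of mucosa over detrusor −1.19 ± 0.20 SE, adjusted p = 0.000168, edgeR), 2.00-fold in SCI-vehicle (−0.997 ± 0.20, adjusted p = 0.000831) and 2.22-fold in SCI-inosine (−1.15 ± 0.20, adjusted p = 0.000344). These calls also held under every one of the 25 alternatives tried for each.

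Between conditions Nt5e had the narrowest intervals of the genes. The log2 differences from Control were −0.17 for SCI-vehicle (95% interval −0.59 to 0.26) and −0.04 for SCI-inosine (−0.47 to 0.39) in detrusor, and −0.02 (−0.42 to 0.38) and −0.03 (−0.43 to 0.38) in mucosa. Differences between SCI-inosine and SCI-vehicle were 0.13 (−0.30 to 0.55) in detrusor and −0.0022 (−0.41 to 0.40) in mucosa, and the adjusted p-values of edgeR for these 6 comparisons were 0.764 or more. The means were 69.8 ± 14.0 CPM in detrusor Control, 67.8 ± 12.6 in SCI-inosine and 61.5 ± 11.1 in SCI-vehicle, and then 30.8 ± 2.83 in mucosa SCI-vehicle, 30.6 ± 5.36 in Control and 30.5 ± 6.73 in SCI-inosine. Neighbours in that order overlapped within each tissue.

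Ada, which turns adenosine into inosine (ENSRNOG00000010265), was 2.68-fold higher in detrusor than in mucosa of Control rats. Its detrusor levels were 60.4, 71.9 and 39.5 CPM in the Control libraries, 33.8, 66.7 and 25.1 CPM with SCI-vehicle, and 48.4, 34.2 and 29.6 CPM in SCI-inosine. Its mucosa levels were 20.2, 26.0 and 18.0 CPM in the Control libraries, 17.4, 14.3 and 27.0 CPM with SCI-vehicle, and 18.0, 30.8 and 32.8 CPM in SCI-inosine. The tissues did not overlap in Control and did in both SCI groups. The log2 fold change of mucosa over detrusor was −1.42 ± 0.35 SE in Control (adjusted p = 0.00334, edgeR), −1.11 ± 0.35 in SCI-vehicle (adjusted p = 0.0168) and −0.46 ± 0.35 in SCI-inosine (adjusted p = 0.303).

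The SCI-vehicle call of Ada was lost without replicate 2 of detrusor SCI-vehicle (adjusted p = 0.159), the highest of its group, and without replicate 1 or 2 of mucosa SCI-vehicle (adjusted p = 0.0559 and 0.0768). On total counts the difference was −0.58 and was not called either (adjusted p = 0.155). With the tissues paired by condition and replicate number it was −1.03 and also not called (edgeR adjusted p = 0.0514). The difference of the inosine effect between the tissues, mucosa less detrusor, was 0.96 on the log2 scale against Control (interval −0.07 to 2.00, edgeR adjusted p = 0.508) and 0.65 against SCI-vehicle (interval −0.39 to 1.69), and neither was called. Within detrusor, Ada was lower than in Control by values of −0.44 in SCI-vehicle (interval −1.18 to 0.30, adjusted p = 0.618) and −0.62 in SCI-inosine (interval −1.36 to 0.12, adjusted p = 0.438), with overlapping libraries. Within mucosa, Ada differed from Control by −0.17 in SCI-vehicle (interval −0.83 to 0.49) and 0.33 in SCI-inosine (−0.32 to 0.99). Mucosa SCI-inosine exceeded SCI-vehicle by 0.50 (interval −0.16 to 1.16), and none of these was called. Its means ran from detrusor Control (57.2 ± 16.4 CPM), SCI-vehicle (41.8 ± 22.0) and SCI-inosine (37.4 ± 9.79) to mucosa SCI-inosine (27.2 ± 8.04), Control (21.4 ± 4.18) and SCI-vehicle (19.5 ± 6.61), each overlapping with the next. Counts of Nt5e were 0.801 to 2.50 times those of Ada in detrusor and 0.802 to 2.37 times in mucosa, ranges that overlapped almost entirely.

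**Figure D3:**
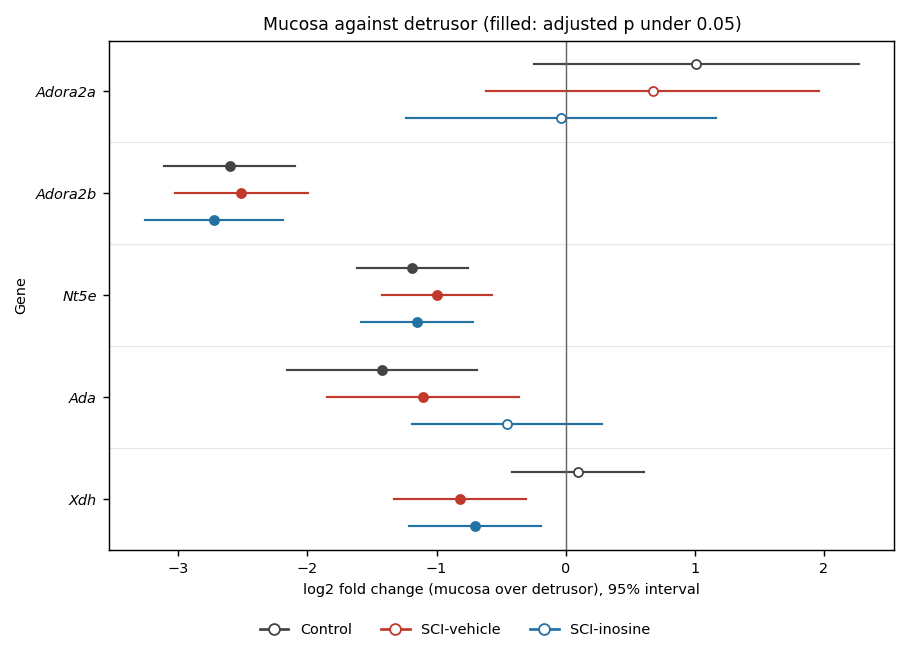
Log2 fold change of mucosa over detrusor with its 95% interval for 5 genes in Control, SCI-vehicle and SCI-inosine, filled where the adjusted p-value of edgeR was under 0.05. Adora2b and Nt5e lie left of 0 with filled points in all 3 conditions, Ada in Control and SCI-vehicle, and Xdh in the SCI groups. Adora1 is left out because its folds rest on too few counts.

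Hprt1, the enzyme that salvages hypoxanthine and is transcribed in nearly every cell, had an entry (ENSRNOG00000031367) with 0 counts in all 18 libraries. A count of 0 allows up to 3 counts, which is 0.440 to 0.922 CPM, before TMM scaling, in a single library and 0.0329 CPM over all of them. Of all entries in the table, 29.6% were at 0 in every library. The entry therefore gives no level for Hprt1, and whether its reads were counted under another identifier was not determined.

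Xdh, which oxidises hypoxanthine and xanthine (ENSRNOG00000007081), was counted at 736 to 2877 reads per library and had the smallest p-value of the 6 genes in both comparisons with Control in detrusor. Its detrusor levels were 206, 254 and 287 CPM in the Control libraries, 293, 357 and 365 CPM with SCI-vehicle, and 259.8, 484 and 451 CPM in SCI-inosine. Its mucosa levels were 221, 328 and 248 CPM in the Control libraries, 176, 175 and 225 CPM with SCI-vehicle, and 170.1, 265 and 301 CPM in SCI-inosine. In detrusor every SCI-vehicle library lay above every Control library, as did replicates 2 and 3 of SCI-inosine, while replicate 1 of SCI-inosine lay among the Control libraries. In mucosa the conditions overlapped.

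The detrusor mean of Xdh was 249 ± 40.9 CPM in Control (SD, n = 3), 338 ± 39.6 CPM with vehicle and 398 ± 121 CPM with inosine. SCI-inosine exceeded Control by 0.68 on the log2 scale (SE 0.23, 95% interval 0.19 to 1.18, 1.61-fold), with an edgeR adjusted p = 0.255. Without replicate 1 of SCI-inosine the difference was 0.92 (adjusted p = 0.0465), and without replicate 2, the library with few genes detected, it was 0.52 (adjusted p = 0.566) and past the unadjusted threshold no longer. SCI-vehicle exceeded Control by 0.46 (SE 0.23, interval −0.04 to 0.95, adjusted p = 0.419), and by 0.55 without replicate 1 of SCI-vehicle, the library nearest to mucosa (adjusted p = 0.513). SCI-inosine and SCI-vehicle differed by 0.22 (interval −0.27 to 0.72, adjusted p = 0.952), and by 0.06 without replicate 2 of SCI-inosine. The comparisons with Control share the same 3 Control libraries.

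In mucosa the difference of Xdh in SCI-vehicle from Control was −0.50 (SE 0.24, interval −1.03 to 0.03, edgeR adjusted p = 0.512), that of SCI-inosine from Control −0.13 (interval −0.65 to 0.40, adjusted p = 0.998) and that of SCI-inosine from SCI-vehicle 0.37 (interval −0.15 to 0.90, adjusted p = 0.889). The injury effect on Xdh in mucosa less that in detrusor was −0.91 (SE 0.34, interval −1.63 to −0.19), which missed the threshold over all genes (edgeR adjusted p = 0.342). For SCI-inosine against Control the same difference was −0.79 (SE 0.34, interval −1.51 to −0.07, edgeR adjusted p = 0.452), and for SCI-inosine against SCI-vehicle 0.12 (SE 0.34). None of the 6 genes was called in these 3 tests of a difference between tissues, where 0.121%, 0% and 0% of all genes were. At an unadjusted p-value under 0.05, Xdh alone was past the threshold in the first and second test, against 11% and 10.4% of all genes, and 0 of the 6 genes in the third, against 3.87%.

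In Control, no tissue difference in Xdh was called (log2 fold change of mucosa over detrusor 0.09 ± 0.24 SE, interval −0.42 to 0.60, edgeR adjusted p = 0.785). In SCI-vehicle detrusor was 1.76-fold higher (−0.82 ± 0.24, adjusted p = 0.0110) and in SCI-inosine 1.62-fold higher (−0.70 ± 0.24, adjusted p = 0.0284). The libraries of the tissues did not overlap in SCI-vehicle and did in SCI-inosine. Such non-overlap held for 5 of the 6 genes in Control, 4 with vehicle and 2 with inosine, against 56.8%, 60.7% and 50.3% of all genes. The genes counted in Control and with vehicle include Adora1, which passed the filter on low counts through its detrusor libraries. The SCI-inosine call of Xdh was lost without replicate 2 or 3 of detrusor SCI-inosine (adjusted p = 0.0796 and 0.0896) and without replicate 1 of mucosa SCI-inosine (adjusted p = 0.122). On total counts both calls were lost (adjusted p = 0.342 and 0.356) and mucosa was higher in Control by 0.65 (adjusted p = 0.0444), so whether a tissue difference in Xdh was called depended on the scaling. Group means ran from detrusor SCI-inosine and SCI-vehicle through mucosa Control (266 ± 55.5 CPM), detrusor Control and mucosa SCI-inosine (245 ± 67.6) to mucosa SCI-vehicle (192 ± 28.9), each overlapping with the next.

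**Figure D4:**
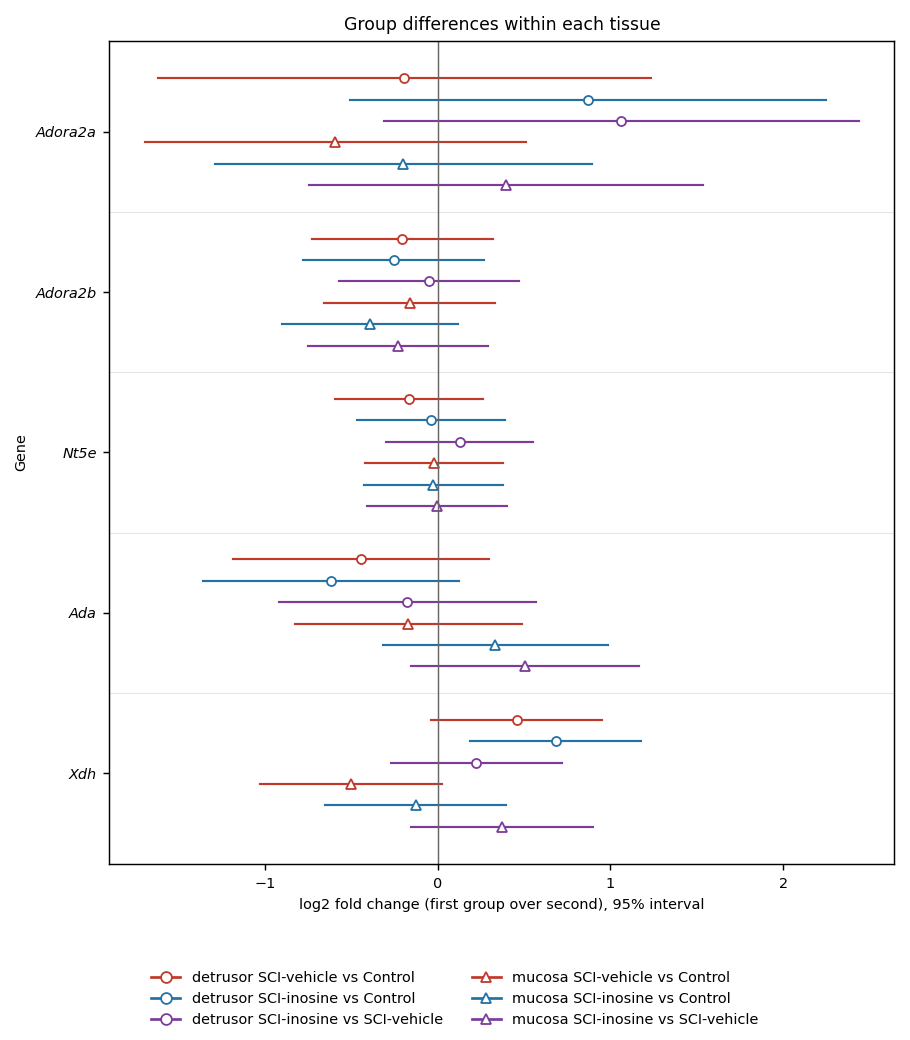
Log2 fold change with its 95% interval for 5 genes in the 3 comparisons of conditions in detrusor (circles) and mucosa (triangles). No point passed an adjusted p-value of 0.05, and the interval of Xdh in detrusor SCI-inosine versus Control, from 0.19 to 1.18, is the only one that leaves out 0. Adora1 is left out because its mucosa folds rest on too few counts.

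The ratio of Xdh to Ada was lower in control detrusor than in control mucosa. With TMM scaling, Ada was higher in detrusor there and no tissue difference in Xdh was called. Xdh counts were 3.41 to 7.27 times the Ada counts in detrusor Control and 11.0 to 13.8 times in mucosa Control, without overlap. In detrusor the ratio was 5.36 to 14.6 in SCI-vehicle and 5.37 to 15.3 in SCI-inosine, and in mucosa 8.35 to 12.2 and 8.60 to 9.44, so that the tissues overlapped after injury. These ratios are a description with no test.

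Across libraries, the genes were compared in pairs within each tissue (5 genes, 20 relations, 9 libraries each, exact permutation tests, Adora1 left out). The 9 libraries were permuted across conditions, so differences between conditions enter these p-values along with differences between libraries of a condition. Adora2a and Xdh rose and fell together in mucosa, with Pearson's r = 0.90 (exact permutation p = 0.00204, Benjamini-Hochberg adjusted p = 0.0408) and Spearman's rho = 0.85 (exact permutation p = 0.00607, adjusted p = 0.121). Without the 2 libraries farthest from the median of Adora2a, r was 0.76. In detrusor the values were r = 0.69 (exact permutation p = 0.0337, adjusted p = 0.135) and rho = 0.60 (exact permutation p = 0.0968, adjusted p = 0.301), and r was 0.43 without the 2 farthest libraries, which include replicate 2 of SCI-inosine. The other 18 relations had adjusted exact permutation p-values of 0.106 or more. In mucosa, the lowest Adora2a and Xdh values lay in replicates 1 and 2 of SCI-vehicle and in replicate 1 of SCI-inosine. The last of these also stood nearest to detrusor of all mucosa libraries (10.8% of the way), and the part of this in the relation was not tested. With the mean of each condition subtracted, r was 0.91 in mucosa and 0.82 in detrusor. This check was added after the values were seen, on the pair with the smallest p-value of the 20 relations. It used the same libraries, so it is a description and not a further test. The detrusor value includes replicate 2 of SCI-inosine and was not computed without it.

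**Figure D5:**
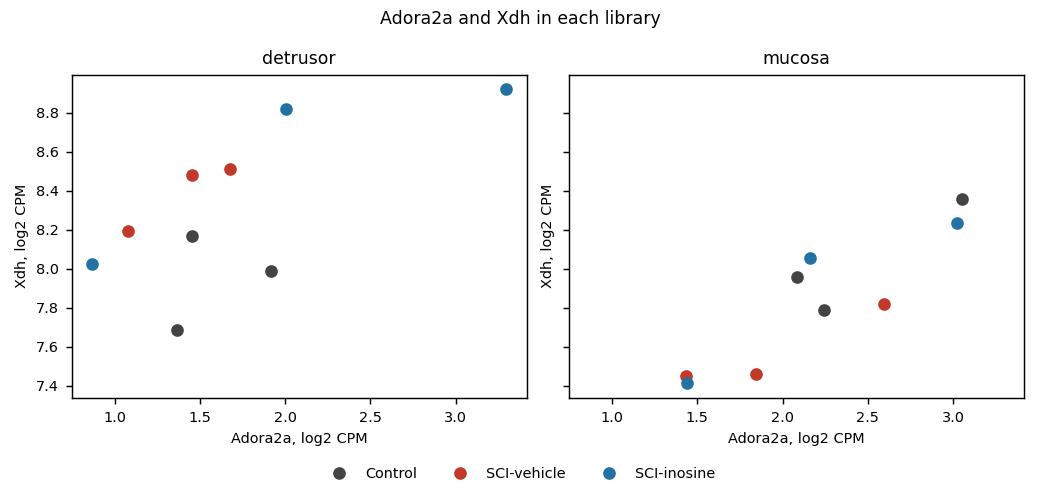
Log2 CPM of Xdh against log2 CPM of Adora2a in the 9 detrusor libraries (left) and the 9 mucosa libraries (right), 1 point per library, coloured by condition. The mucosa points follow a rising line (r = 0.90) and the detrusor points scatter more widely (r = 0.69).

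The genes whose levels followed each of these most closely across the 18 libraries, after the mean of each tissue was subtracted, were given in the table by identifier only. The closest entry had r = 0.95 with Xdh (ENSRNOG00000011796), 0.92 with Adora2a (ENSRNOG00000018666), 0.90 with Ada (ENSRNOG00000010771) and 0.83 with Nt5e (ENSRNOG00000007076), and for Adora2b and Adora1 the closest values were 0.78 and 0.85. These are the highest of 15740 correlations over libraries that share their condition and depth, and they are a description only.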

How the data were processed

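Total RNA of 18 rat bladder samples, in groups by tissue and condition as labelled, was depleted of ribosomal RNA and sequenced as stranded paired-end libraries. The authors deposited raw read counts per Ensembl gene, summed over both flow cells of a sample. The submitters' processing notes name Trim Galore 0.6.10, STAR 2.7.10a, featureCounts 2.0.3 and the build Rnor_6.0. The counting's strand setting is not given in the sources used here. The files do not pair identifiers with symbols and no table used here could, so planned lists of other purine genes and cell type markers were not analysed and the tissue labels were not checked by markers. Genes over 1 CPM in at least 3 of 18 libraries were tested (15740) in R 4.3.3 with edgeR 4.0.16, TMM scaling, the quasi-likelihood F test and Benjamini-Hochberg adjustment over all genes. Each tissue's 9 libraries entered one fit, and tissue differences and interactions in one model of 6 groups. The standard error is the log2 fold change over the square root of F. DESeq2 1.42.0, other filters, scalings, models and libraries left out were alternatives. The detrusor fit was tested on simulated data for SCI-vehicle versus Control, and the model of 6 groups was not tested in this way. Genes and lists were chosen with earlier results of these data known, and all 7 genes are named. The study's supplement calls the 3 samples of a condition biological replicates. No samples were left out.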

Additional observations from a re-analysis of the deposited data

How the results depend on the processing

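For the 57 results, 1206 values under alternatives were computed: 1140 kept direction and side of the threshold, 11 lost a call, 5 gained one and 50 changed sign, each of these without a call. Of the differences of effects between tissues, only those of Xdh were among these results. The calls of Adora2b and Nt5e between tissues held throughout. The biological coefficient of variation, 26.5% in detrusor and 20.0% in mucosa with 3 libraries a group, limits the precision. The number of genes called over the whole table was 12 with edgeR and 337 with DESeq2 for detrusor SCI-vehicle versus Control and 46 and 349 for SCI-inosine versus Control. It was 0 and 10 for SCI-inosine versus SCI-vehicle in detrusor, and in mucosa 0 and 80, 0 and 13, and 1 and 11. For the differences of the effects between tissues, it was 19 and 185, 0 and 59, and 0 and 0.

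Of the 6 genes, the unadjusted threshold called 1 in detrusor SCI-inosine versus Control and in each of the first 2 tests of a difference between tissues, alone or with a log2 fold change beyond 0.5. Leaving out a library gave 0 to 1 in detrusor SCI-inosine versus Control, where 0 to 100 of the 15740 genes tested were called. For mucosa versus detrusor it gave 3 to 4 in Control, 3 to 5 in SCI-vehicle and 2 to 3 in SCI-inosine. Over all genes it gave 5870 to 7704, 5798 to 8127 and 5365 to 6719 calls. The 4 in Control and the 5 in SCI-vehicle include Adora1, which passed the filter on low counts through its detrusor libraries. Total counts in place of TMM, chosen after seeing the data, gave 5 in Control and 3 in SCI-vehicle, against 8970 and 9355 of the 15740 genes tested. It moved the median of all genes by 0.11 in detrusor SCI-inosine versus Control and by −0.14 and −0.10 in the tests of a difference of the inosine effect between tissues. The cause of these changes was not tested.

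Replicate numbers did not meet the threshold for pairing, a correlation of deviations over 0.1 in every pair: they ran from −0.12 to 0.24 in detrusor (2 of 9 over it), −0.26 to 0.46 in mucosa (5 of 9) and 0.0056 to 0.23 between the tissues (5 of 9, all above 0). The labels do not say whether detrusor and mucosa libraries of one number came from the same rat. The main tissue tests treated the 18 libraries as independent, and this threshold cannot exclude such pairing. With the replicate block, 0 of the 6 genes were called in the 6 comparisons within tissues. Between tissues 3, 4 and 3 of 6 were called, or 3, 3 and 3 of the 5 genes other than Adora1. Of the 15740 genes tested, 6545, 6984 and 6166 were called between tissues with this block. Ada in SCI-vehicle then had an edgeR adjusted p = 0.0514. The block gave 0.13 for Adora2a between tissues in SCI-inosine.

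Among uncalled log2 fold changes, leaving out a library gave these ranges. In detrusor SCI-vehicle versus Control, they were −0.36 to 0.033 for Adora2a, −0.40 to 0.0039 for Adora2b and −0.32 to 0.0028 for Nt5e. In detrusor SCI-inosine versus Control, they were −0.085 to 1.31 for Adora2a and −0.16 to 0.13 for Nt5e, which was 0.058 with each library's position toward the opposite tissue as a covariate and 0.075 on total counts. In detrusor SCI-inosine versus SCI-vehicle, they were −0.83 to 0.32 for Adora1, −0.44 to 0.33 for Ada and −0.29 to 0.067 for Adora2b, which was 0.0046 on total counts. In mucosa SCI-vehicle versus Control, they were −0.48 to 0.035 for Ada and −0.18 to 0.086 for Nt5e, which was 0.0096 with all 18 libraries in one model and 0.040 on total counts. In mucosa SCI-inosine versus Control, they were −0.31 to 1.51 for Adora1, −0.79 to 0.21 for Adora2a, −0.19 to 0.091 for Nt5e and −0.31 to 0.093 for Xdh. The same covariate gave 0.11 for Adora2a and 0.071 for Xdh there. In mucosa SCI-inosine versus SCI-vehicle, they were −0.20 to 0.82 for Adora2a and −0.16 to 0.11 for Nt5e, which was 0.0026 under filterByExpr, 0.0011 with only the groups compared and 0.012 with that covariate. Between tissues, they were −0.086 to 0.21 for Xdh in Control and −0.61 to 0.85 for Adora2a in SCI-inosine, which was 0.35 on total counts. The tissue difference of SCI-inosine against SCI-vehicle in Xdh was −0.11 to 0.33. The filter filterByExpr dropped Adora1 in mucosa.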
